A study of Homo sapiens with 8 samples.

Results

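TET2, DNMT3A, ASXL1, EZH2, RUNX1, STAG2, RAD21, IDH1, IDH2 and BCOR are genes outside the splicing machinery that are recurrently mutated in myelodysplastic syndromes, clonal disorders of blood formation, in some patients together with mutations of the splicing factor SF3B1. They were chosen by name, and all 10 were found among the 23522 genes of the deposited files and among the 11344 genes tested. RNA sequencing after depletion of ribosomal RNA gave 8 libraries of K562, a human erythroleukaemia line, in 4 groups of 2. Induced K700E cells carried a doxycycline-inducible SF3B1 transgene with the K700E substitution, the most frequent SF3B1 mutation of these syndromes, and had received doxycycline at 1 ug/ml for 48 h; uninduced K700E cells carried the same transgene without doxycycline. Induced WT cells and uninduced WT cells carried the wild-type SF3B1 transgene and differed in the same way. Every group was grown in medium with 10% serum. The labels do not say whether a line is 1 clone or whether replicates came from separate cultures, so p-values measure only the spread between these libraries, which may be technical.

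The 10 genes act at 4 levels of gene control. TET2 oxidises 5-methylcytosine, with 2-oxoglutarate as a cosubstrate that the dehydrogenases IDH1 and IDH2 make from isocitrate, while DNMT3A lays down new DNA methylation. EZH2 is the catalytic subunit of Polycomb repressive complex 2, which methylates histone H3 at lysine 27; ASXL1 binds the histone H2A deubiquitinase BAP1, and BCOR is the scaffold of a variant Polycomb repressive complex 1 that ubiquitinates H2A. RUNX1 is a transcription factor of definitive blood formation, and STAG2 and RAD21 are subunits of the cohesin ring, which holds sister chromatids together and extrudes chromatin loops. SF3B1 sits in the U2 small nuclear ribonucleoprotein at the branch point of introns, and K700E is known for the use of cryptic acceptors a short way upstream of the usual ones.

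The files give FPKM, fragments per kilobase of transcript, scaled to the mapped fragments of the library, so levels are per length and can be compared between genes. Coordinates are on hg19, as in the files. A gene's level is the sum over its reference transcripts and the spliced transcripts assembled in each library. Coverage per FPKM ranged from 3.29 to 4.77, and the half-width of the deposited confidence interval of the most abundant transcript of a member ranged from 3.15% to 11.7% of its value, which is estimation error within 1 library. SF3B1 was at 29.0 and 39.5 FPKM in induced K700E cells, 34.6 and 30.4 FPKM in uninduced K700E cells, 36.6 and 27.3 FPKM in induced WT cells and 37.7 and 31.7 FPKM in uninduced WT cells. Whether these levels include reads of the transgene is not stated. The groups overlapped, so the SF3B1 level does not check the labels. All 14 K562 markers were at 1 FPKM or more in every library, and their summed level was 7293 to 10670 FPKM in induced K700E cells, 9223 to 13633 FPKM in uninduced K700E cells, 6495 to 6725 FPKM in induced WT cells and 6758 to 7235 FPKM in uninduced WT cells. Of 9 myeloid markers, 5 stayed under 1 FPKM in all libraries (CD14, MPO, S100A8 and S100A9 were listed at 0), and the list summed to 10.8 to 12.3 FPKM in induced K700E cells, 37.3 to 43.7 FPKM in uninduced K700E cells, 35.5 to 54.1 FPKM in induced WT cells and 35.2 to 63.6 FPKM in uninduced WT cells. CD68, at 3.26 to 34.6 FPKM over the 8 libraries, and LYZ, at 6.53 to 24.8 FPKM, carried most of this myeloid sum. Of 8 lymphoid markers 4 stayed under 1 FPKM, with sums of 19.6 to 19.8 FPKM, 32.6 to 76.9 FPKM, 18.3 to 38.3 FPKM and 44.9 to 55.9 FPKM in the same order of groups. The 9 stromal and epithelial markers, of which VIM, KRT8 and KRT18 carried most of the signal and COL3A1 was listed at 0, summed to 655 to 732 FPKM in induced K700E cells and 1143 to 1447 FPKM in uninduced K700E cells, and to 532 to 720 FPKM in induced WT cells and 554 to 843 FPKM in uninduced WT cells. The part of these shifts in the results was not tested.

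All 10 genes were expressed in every library, and none changed past the test in any comparison. By median over the 8 libraries, IDH2 stood first at 77.4 FPKM, followed by BCOR at 70.8, RAD21 at 64.0, EZH2 at 52.8, RUNX1 at 40.3, STAG2 at 36.3, IDH1 at 27.3, ASXL1 at 17.9, DNMT3A at 7.12 and TET2 at 6.78 FPKM. The order therefore runs from a mitochondrial metabolic enzyme, a Polycomb scaffold and a cohesin subunit down to the pair of enzymes that write and oxidise cytosine methylation. Between neighbours in this order, the widest gap was that of ASXL1 over DNMT3A, with a mean log2 difference of 1.37 ± 0.61 (SD) and ASXL1 higher in 8 of 8 libraries. By a two-sided exact sign-flip permutation test over the 8 libraries its p was 0.00781, the smallest that 8 libraries allow, and 0.0703 after Benjamini-Hochberg adjustment over the 9 neighbouring pairs. RAD21 over EZH2 and EZH2 over RUNX1 both had an adjusted p of 0.117 in this exact permutation test. No neighbouring pair differed past the threshold of 0.05. The pairs were set by the medians of these same libraries, and a single pair at the smallest p could not pass after adjustment. These tests therefore do not decide the order.

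Doxycycline was compared with no doxycycline within each line, and the lines were compared with and without it, by limma on log2(scaled FPKM + 0.5). No member passed an adjusted p of 0.05 in any of the 5 comparisons, counting the interaction of line and doxycycline. Over all tested genes, 0.0264% were called for K700E induction, 0.0176% for WT induction, 0.0353% for induced K700E against induced WT cells, 0.00882% for uninduced K700E against uninduced WT cells and 0.0264% for the interaction. The smallest adjusted p of any member was 0.951, that of EZH2 between the induced lines. At an unadjusted p under 0.05, 1 member passed in 1 comparison, RUNX1 between the uninduced lines, and 0 of 10 passed in each of the other 4 comparisons. Over all tested genes the share under this unadjusted p was 4.64% for K700E against WT cells without doxycycline, and it was 4.69% for K700E induction, 4.3% for WT induction, 5.25% for the lines with doxycycline and 4.28% for the interaction. The median log2 fold change of the members was -0.17 for K700E induction, against -0.01 over all tested genes, and -0.15 for WT induction, against 0.01 over all tested genes.

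**Figure D1:**
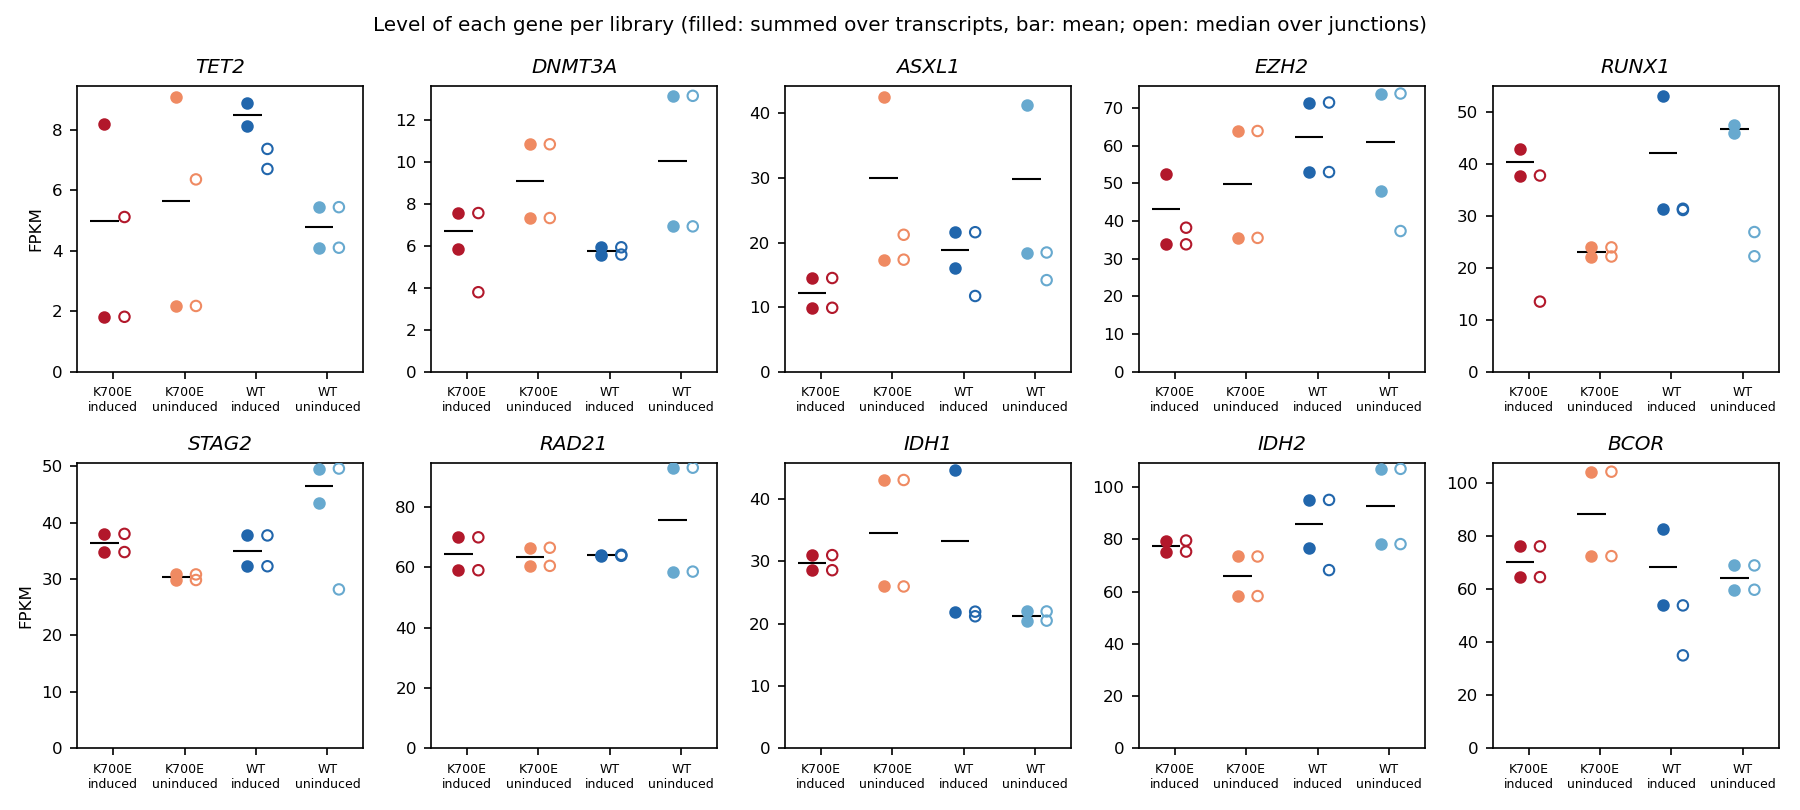
Level of each of the 10 genes in FPKM (vertical axes, from 0) in the 4 groups, induced K700E, uninduced K700E, induced WT and uninduced WT from left to right. Filled points are libraries by the sum over transcripts with the group mean as a bar, and open points are the same libraries by the median over junctions; the 2 forms of ASXL1, RUNX1, IDH1 and BCOR points part in some libraries, for example 42.6 against 21.2 FPKM for ASXL1 in 1 uninduced K700E library.

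The groups of 2 libraries parted without overlap for the members at shares near those of all tested genes. Induced and uninduced K700E libraries did not overlap for 4 of 10 members (RUNX1, STAG2 and IDH2 higher, ASXL1 lower in induced cells), against 33.9% of all tested genes. Induced and uninduced WT libraries did not overlap for 4 of 10 members (TET2 and IDH1 higher, DNMT3A and STAG2 lower in induced cells), against 29.1% of all genes. Between induced K700E and induced WT cells the groups parted for TET2, ASXL1 and EZH2, all lower in K700E cells, against 32.9% of all genes. Overlap was judged on scaled FPKM, and by the FPKM as deposited the TET2 libraries overlapped, at 1.82 and 8.17 in induced K700E cells against 8.11 and 8.89 in induced WT cells, as did those of IDH1 in the WT line. Between uninduced K700E and uninduced WT cells they parted for 5 members (IDH1 and BCOR higher, RUNX1, STAG2 and IDH2 lower in K700E cells), against 32.6% of all genes. The induced comparisons share their libraries with these line comparisons, so the counts are not independent of each other.

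TET2 (chr4:106067032-106200960, plus strand), the least abundant member, had the widest ratio between libraries of the K700E line. Its level was 1.82 and 8.17 FPKM in induced K700E cells and 9.08 and 2.18 FPKM in uninduced K700E cells, and 8.11 and 8.89 FPKM in induced WT cells and 5.44 and 4.10 FPKM in uninduced WT cells. Each K700E group thus held 1 library at about 2 FPKM and 1 at 8 FPKM or more, and the highest library was 4.99 times the lowest. The log2 fold change was -0.17 ± 0.91 (SE) for K700E induction and 0.78 ± 0.91 for WT induction. Leaving out single libraries moved the K700E value between -1.12 and 0.78. The full-length reference transcript with a catalytic domain was listed above 0 in 2 libraries only. In its place an assembled form with 10 introns that starts at the first exon of the short reference form was found in 6 of 8 libraries, and junctions of the 3′ part, which encodes the catalytic domain, were present in all 8. The reference form that ends early, before most of that domain, was listed above 0 in 1 induced WT library at 1.41 FPKM, 17.3% of the gene there.

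Other members of the TET family were more abundant. TET3 had a median of 15.0 FPKM and TET1 of 9.57 FPKM; TET2 was lower than TET3 in 7 of 8 libraries (mean log2 difference -1.44, adjusted p = 0.0172) and lower than TET1 in 6 of 8 (mean log2 difference -0.77, adjusted p = 0.0313), by exact sign-flip permutation tests adjusted over the 11 pairs of relatives compared.

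IDH1 and IDH2 make 2-oxoglutarate in the cytosol and in mitochondria, and their neomorphic mutants make 2-hydroxyglutarate, which inhibits TET2. IDH1 (chr2:209100953-209119806, minus strand) was at 28.6 and 31.0 FPKM in induced K700E cells and 43.1 and 26.0 FPKM in uninduced K700E cells, and at 21.9 and 44.7 FPKM in induced WT cells and 20.5 and 22.0 FPKM in uninduced WT cells. The 2 K700E groups overlapped, and 1 induced WT library stood above the other 3 WT libraries. That library also held an assembled fragment of the last 3 introns at 23.5 FPKM besides the full transcript at 21.2 FPKM, and taken as the median over the junctions of the reference transcript its level was 21.2 FPKM, within the range of the other WT libraries. IDH2 (chr15:90627212-90645708, minus strand) was at 75.3 and 79.6 FPKM in induced K700E cells and 73.4 and 58.3 FPKM in uninduced K700E cells, and at 76.5 and 95.1 FPKM in induced WT cells and 78.2 and 107 FPKM in uninduced WT cells. The log2 fold change of IDH2 was 0.24 ± 0.30 (SE) for K700E induction and -0.10 ± 0.30 for WT induction, and that of IDH1 was -0.16 ± 0.45 and 0.55 ± 0.45. IDH2 was above IDH1 in 8 of 8 libraries, by 1.46 on the log2 scale (exact permutation test, adjusted p = 0.0107).

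DNMT3A (chr2:25455830-25565459, minus strand) was at 5.86 and 7.56 FPKM in induced K700E cells and 10.8 and 7.32 FPKM in uninduced K700E cells, and at 5.58 and 5.93 FPKM in induced WT cells and 6.92 and 13.1 FPKM in uninduced WT cells. The log2 fold change was -0.39 ± 0.61 (SE) for K700E induction and -0.69 ± 0.61 for WT induction, neither past the test. DNMT3A was the least abundant of the 3 catalytic DNA methyltransferases. The maintenance enzyme DNMT1 had a median of 54.5 FPKM and DNMT3B, the other de novo enzyme, of 26.6 FPKM, and DNMT3A was lower than each in 8 of 8 libraries (mean log2 differences -2.76 and -1.79, exact permutation test, adjusted p = 0.0107 for both). A pair of promoters gives a long protein and a shorter one, DNMT3A2, that lacks the N-terminal part and starts inside the gene. Transcripts from the internal start made up 64.7% and 68.7% of DNMT3A in induced K700E cells and were listed at 0 in both uninduced K700E libraries; they made up 100% and 0% in induced WT cells and 100% in both uninduced WT libraries. Transcripts that join the upstream start to the rest of the gene were listed above 0 in 3 libraries, 1 of each group other than uninduced WT cells. In addition, 1 uninduced K700E library held only a fragment of the 3′ part, without either start. The 0 of that library therefore does not measure which start was used. No transcript of DNMT3A passed the limma test. How often transcript shares of all genes part between groups of 2 was not counted.

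Around these enzymes, 17 of 18 listed genes of DNA methylation and demethylation were tested, DNMT1 having the highest mean level and DNMT3L being listed at 0. In K700E induction 0 passed the test, 10 were above and 7 below 0, and the median log2 fold change was 0.09, against -0.01 over all genes. At an unadjusted p under 0.05, 2 of the 17 passed in K700E induction, against 4.69% of all tested genes, and 0 in WT induction, against 4.3%.

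ASXL1 (chr20:30946147-31027122, plus strand) had the largest fitted change of the members with K700E induction when all libraries were used, and that change depended on how its transcripts were summed. It was at 9.91 and 14.5 FPKM in induced K700E cells and 17.4 and 42.6 FPKM in uninduced K700E cells, and at 16.1 and 21.6 FPKM in induced WT cells and 18.5 and 41.3 FPKM in uninduced WT cells. By this sum both induced K700E libraries lay below every other library, and 1 library of each uninduced group stood far above the rest. The log2 fold change was -1.15 ± 0.60 (SE, unadjusted p = 0.0931, limma adjusted p = 1) for K700E induction and -0.56 ± 0.60 for WT induction, and induced K700E against induced WT cells gave -0.62 ± 0.60. In the high uninduced K700E library the gene was assembled in 2 pieces, the first 6 introns at 21.2 FPKM and the last 5 introns at 21.4 FPKM, which both count in the sum. The high uninduced WT library held 27.1 FPKM of a reference form with 3 introns that ends early, and no other library listed that form above 0; the long form there was at 14.2 FPKM. By the median over junctions ASXL1 ranged from 9.91 to 21.6 FPKM over the 8 libraries, a ratio of 2.18 in place of 4.30. With the reference transcripts alone, which leaves out both pieces of the uninduced K700E library, the log2 fold change for K700E induction turned to 2.06. By the median over junctions it was -0.65, and it was -0.47 without the high uninduced K700E library and -1.82 without the other uninduced K700E library. ASXL1 was above its relative ASXL2, at a median of 10.8 FPKM, in 7 of 8 libraries (mean log2 difference 0.99, exact permutation test, adjusted p = 0.0172).

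**Figure D2:**
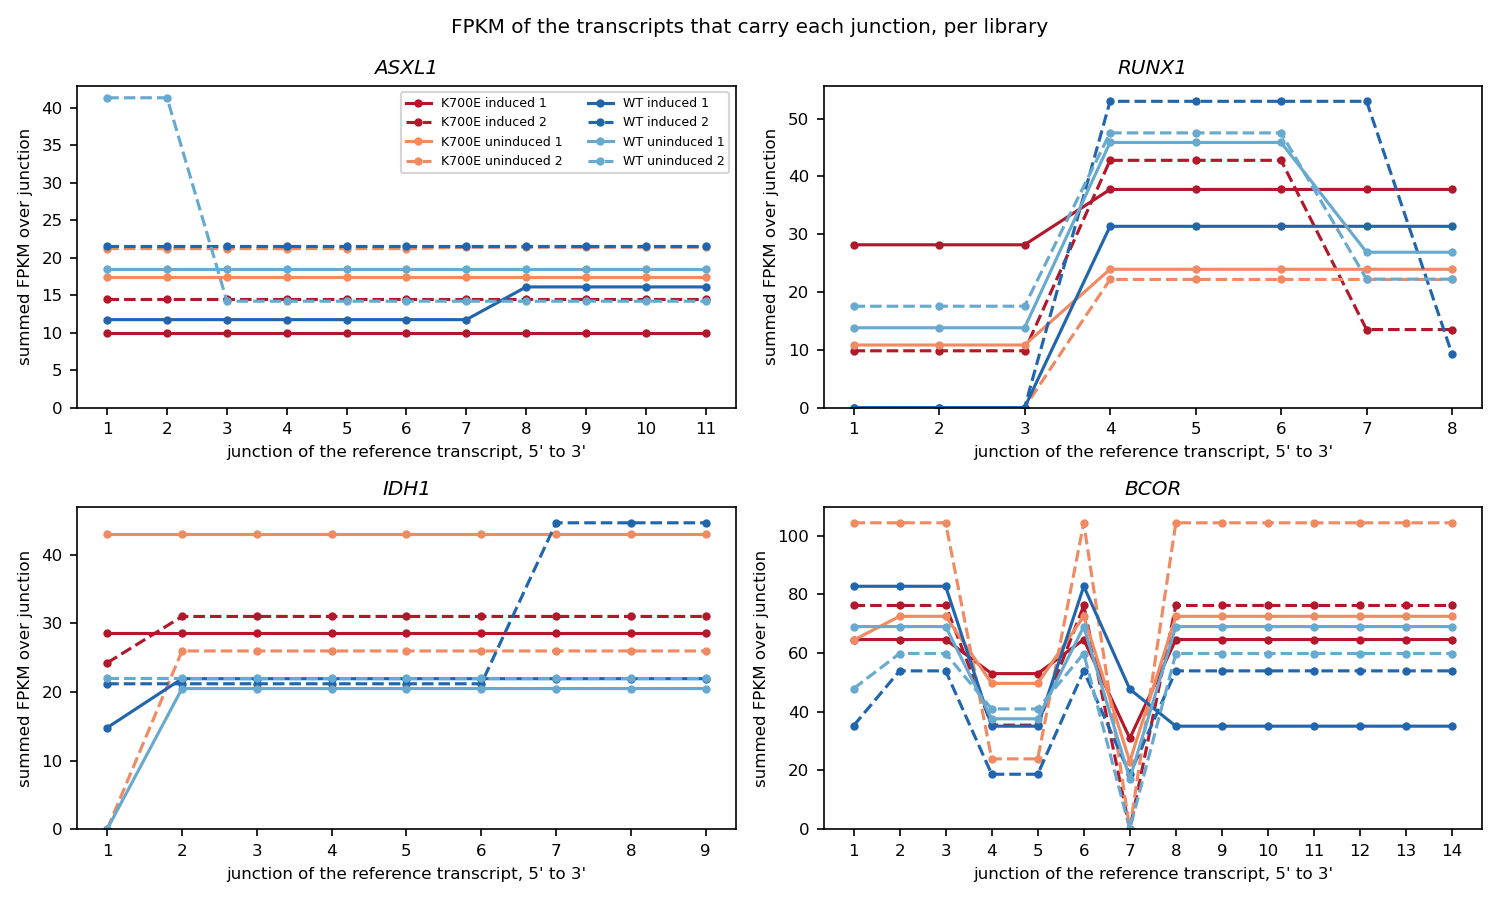
Summed FPKM (vertical axes) of the transcripts that carry each junction of the longest-spliced reference transcript (horizontal axes, 5′ to 3′) of ASXL1, RUNX1, IDH1 and BCOR, 1 line for each library, with replicate 1 solid and replicate 2 dashed. A flat line means that all junctions have the same level; ASXL1 in 1 uninduced WT library falls to 14.2 FPKM after the second junction, RUNX1 drops at its last junctions in 4 libraries, 2 of which hold the early-ending RUNX1a, and BCOR dips at its alternative exon and acceptor.

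EZH2 (chr7:148504464-148581441, minus strand) was at 33.8 and 52.5 FPKM in induced K700E cells and 35.6 and 63.9 FPKM in uninduced K700E cells, and at 71.5 and 53.0 FPKM in induced WT cells and 73.9 and 47.9 FPKM in uninduced WT cells. Within each line the induced and uninduced libraries overlapped, with log2 fold changes of -0.17 ± 0.44 (SE) for K700E induction and 0.04 ± 0.44 for WT induction. Both induced K700E libraries were below both induced WT libraries (log2 difference -0.55 ± 0.44, limma adjusted p = 0.951). EZH1, the paralogue that can replace EZH2 in Polycomb repressive complex 2, had a median of 5.69 FPKM and was lower in 8 of 8 libraries (mean log2 difference of EZH2 over EZH1 3.15, exact permutation test, adjusted p = 0.0107).

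The reference transcripts of EZH2 differ in exons that keep the reading frame, and these vary between libraries. The following sequences are shown because they are the pieces of the EZH2, BCOR and STAG2 messages that the alternative forms gain or lose. They were read from GENCODE release 29 transcripts with matching exon and intron lengths, and are written 5′ to 3′ on the transcript strand, with the alternative piece in capitals and 12 flanking bases on each side in lower case. In EZH2 the first is the 117-nt exon (chr7:148529726-148529842, hg19, minus strand) and the second the 27-nt extension of the exon before it (chr7:148543562-148543588), which begins with the GT of the inner donor.
EZH2 117-nt exon: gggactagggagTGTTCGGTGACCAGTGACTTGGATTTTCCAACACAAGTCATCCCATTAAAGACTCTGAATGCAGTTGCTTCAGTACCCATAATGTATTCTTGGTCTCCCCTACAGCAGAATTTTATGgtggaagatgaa
EZH2 27-nt extension: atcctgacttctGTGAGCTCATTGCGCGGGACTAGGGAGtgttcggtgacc
EZH2 transcripts with the 117-nt exon made up 100% and 39.4% of those with or without it in induced K700E cells and 100% and 72.8% in uninduced K700E cells, and 100% and 83.0% in induced WT cells and 100% in both uninduced WT libraries. The exon was thus left out in 3 libraries, 1 of each group except uninduced WT cells, and all of them were replicate 2. The outer donor, which adds the 27 bases, took 0% and 72.8% in induced K700E cells and 55.6% and 100% in uninduced K700E cells, and 0% and 100% in induced WT cells and 81.3% and 73.8% in uninduced WT cells. The 2 libraries of induced K700E cells and those of induced WT cells each held 1 at 0%. The last alternative piece of EZH2, a 126-nt exon at chr7:148512006-148512131, was included in full in 7 libraries and at 42.4% in 1 uninduced WT library. Over the introns of these 3 events, the smallest limma adjusted p in the 5 comparisons was 0.862.

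BCOR (chrX:39910499-40036582, minus strand), the second most abundant member, was at 64.6 and 76.2 FPKM in induced K700E cells and 72.5 and 104 FPKM in uninduced K700E cells, and at 82.8 and 53.9 FPKM in induced WT cells and 69.0 and 59.9 FPKM in uninduced WT cells. The log2 fold change was -0.31 ± 0.35 (SE) for K700E induction and 0.05 ± 0.35 for WT induction. By the median over junctions 1 induced WT library was at 35.1 FPKM, and the WT value turned to -0.55; that library held a 6-intron piece of the 5′ part at 47.7 FPKM. BCOR exceeded BCORL1, its paralogue, in 8 of 8 libraries (medians of 70.8 and 12.9 FPKM, exact permutation test, adjusted p = 0.0107). A pair of alternative pieces separates the BCOR reference transcripts, a 54-nt exon (chrX:39930890-39930943, hg19, minus strand) and a 102-nt extension from an upstream acceptor (chrX:39923104-39923205), which ends with the AG of the downstream acceptor.
BCOR 54-nt exon: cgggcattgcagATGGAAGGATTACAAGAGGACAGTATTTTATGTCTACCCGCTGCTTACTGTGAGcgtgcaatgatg
BCOR 102-nt extension: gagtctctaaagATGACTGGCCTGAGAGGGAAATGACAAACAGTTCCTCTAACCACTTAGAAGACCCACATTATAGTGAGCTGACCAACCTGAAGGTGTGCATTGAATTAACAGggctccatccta
Both forms of the BCOR exon were present in all 8 libraries, which no other cassette exon of the members showed. The 54-nt exon was included at 82.0% and 46.5% in induced K700E cells and 68.5% and 22.9% in uninduced K700E cells, and at 42.4% and 34.7% in induced WT cells and 54.5% and 68.4% in uninduced WT cells. Groups within the K700E line overlapped, while in the WT line both induced libraries lay below both uninduced ones. In the induced WT library at 42.4%, however, all signal without the exon was that of the 6-intron piece, at 47.7 FPKM. How often exon or splice-site shares of all genes part between such groups was not counted. The upstream acceptor with the 102-nt extension was used at 47.9% and 0% in induced K700E cells and 31.7% and 0% in uninduced K700E cells. It was used at 57.6% and 34.7% in induced WT cells and 24.9% and 0% in uninduced WT cells, so the WT groups parted. In the induced WT library at 57.6%, all signal with the extension was that of the 6-intron piece. In the induced WT library at 34.7%, it was an assembled transcript at 18.7 FPKM found in no other library. Neither event passed the test, with smallest limma adjusted p over the 5 comparisons of 0.862 for the exon and 0.866 for the acceptor. The form without the 54-nt exon was carried mostly by an assembled 13-intron transcript found in 7 of 8 libraries, because the reference transcript without the exon starts at a distal first exon and was listed at 0 in all libraries. Transcripts from that distal first exon were listed above 0 in 2 libraries, at 11.2% in 1 uninduced K700E library and 20.0% in 1 uninduced WT library.

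**Figure D3:**
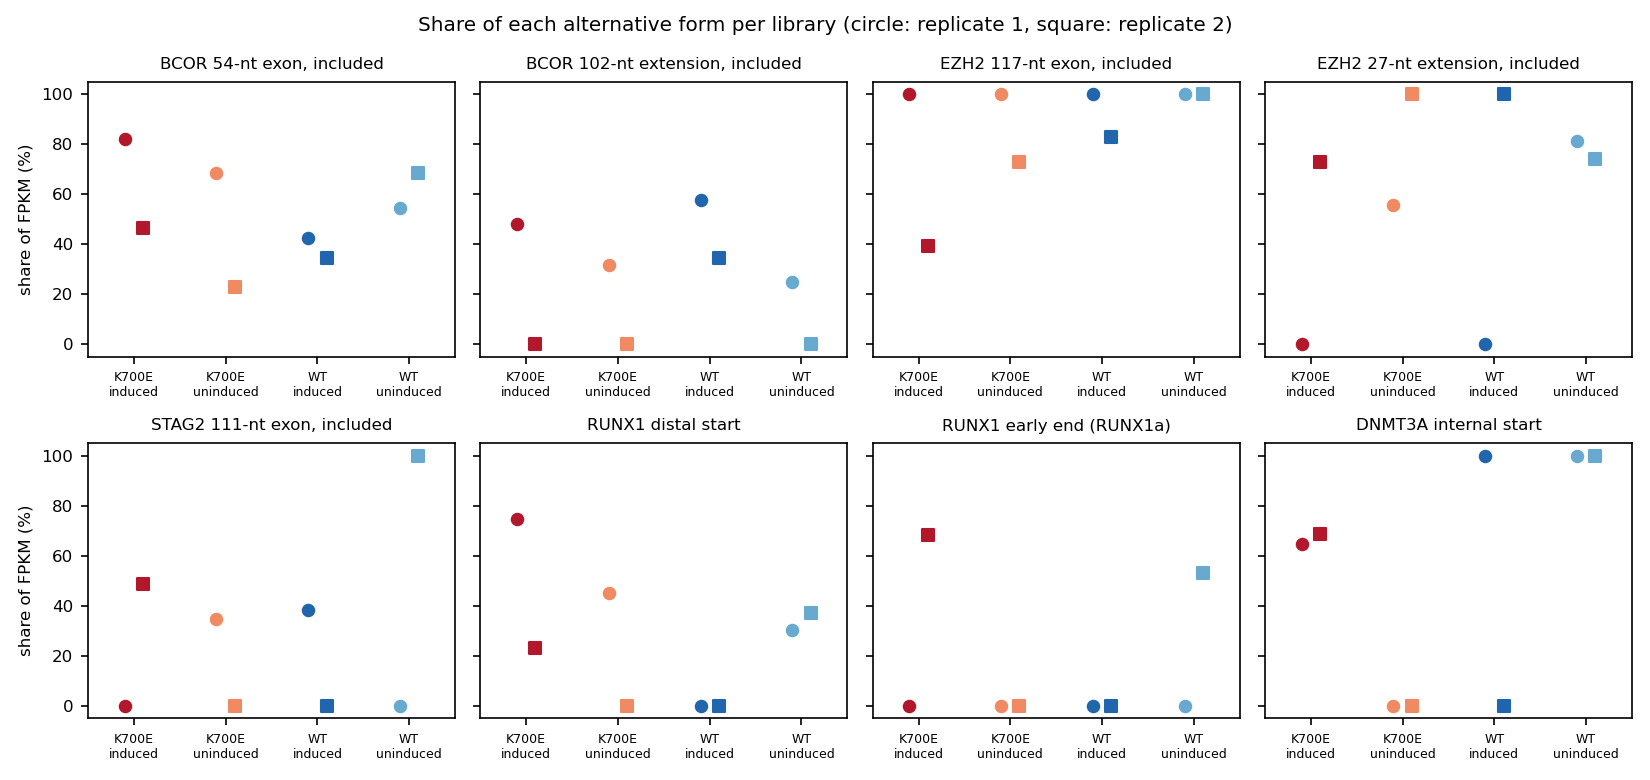
Share of FPKM in percent (vertical axes) of 8 alternative forms of BCOR, EZH2, STAG2, RUNX1 and DNMT3A in induced K700E, uninduced K700E, induced WT and uninduced WT cells, with a circle for replicate 1 and a square for replicate 2. The BCOR 54-nt exon takes intermediate values, between 22.9% and 82.0%, in all libraries, while each of the other 7 forms is at 0% or 100% in at least 1 library.

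None of the listed partners of the chromatin members passed the test for induction in either line. Of 23 listed genes of Polycomb repressive complex 2 and the BAP1 complex 22 were tested, PHF19 having the highest mean level and ASXL3 the lowest. For K700E induction 0 passed the limma test, 12 were above and 10 below 0, with a median log2 fold change of 0.09; 0 also passed an unadjusted p under 0.05. For WT induction 0 passed, 15 were above and 7 below 0, with a median of 0.25, against 0.01 over all genes, and 2 had an unadjusted p under 0.05, against 4.3% of all tested genes. Of 15 BCOR partners and subunits of its complex 14 were tested, with SKP1 highest and TFAP2A lowest. For K700E induction 0 passed, 6 were above and 8 below 0, with a median of -0.15, and 1 had an unadjusted p under 0.05, against 4.69% of all tested genes.

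RUNX1 (chr21:36160098-36421595, minus strand) stood out among the members only before adjustment for multiple tests. It was at 37.7 and 42.8 FPKM in induced K700E cells and 23.9 and 22.2 FPKM in uninduced K700E cells, and at 31.4 and 53.0 FPKM in induced WT cells and 45.9 and 47.5 FPKM in uninduced WT cells. By this summed level the uninduced K700E libraries were the lowest 2 of the 8, but by the median over junctions the lowest was 1 induced K700E library, at 13.5 FPKM, and the uninduced libraries overlapped, at 23.9 and 22.2 FPKM in K700E cells and 26.9 and 22.2 FPKM in WT cells. Uninduced K700E against uninduced WT cells gave a log2 difference of -1.02 ± 0.37 (SE, unadjusted p = 0.0242, limma adjusted p = 0.970), and by the median over junctions this difference was -0.096. K700E induction gave 0.79 ± 0.37 (unadjusted p = 0.0623, limma adjusted p = 1) and WT induction -0.20 ± 0.37, and the interaction was 0.99 ± 0.52 (unadjusted p = 0.0924, limma adjusted p = 0.999). By the median over junctions K700E induction gave -0.02, WT induction 0.36 and the interaction -0.38. Junctions 4 to 6 of the reference transcript, however, carried the summed level in every library. Junctions 1 to 3, 7 and 8 were missing from some forms, so for RUNX1 this median follows the forms as well as the level.

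The forms of RUNX1 differed between libraries. RUNX1 has a distal and a proximal promoter, and a form called RUNX1a ends early and lacks the transactivation domain. RUNX1a made up 68.4% of RUNX1 in 1 induced K700E library, at 29.3 FPKM, and 53.2% in 1 uninduced WT library, at 25.3 FPKM, and was listed at 0 in the other 6. Transcripts from the distal start made up 74.6% and 23.0% in induced K700E cells and 45.2% and 0% in uninduced K700E cells, and 0% in both induced WT libraries against 30.1% and 36.9% in uninduced WT cells. The share from the distal start was thus lower in induced WT cells than in uninduced WT cells in both libraries, while the K700E groups overlapped. It was also 0% in 1 uninduced K700E library, and how often the intron shares of all genes part between groups of 2 was not counted. No intron of RUNX1 passed the test. In every library the proximal reference transcript with the long end was listed above 0, between 3.68 and 22.2 FPKM.

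RUNX1 was the RUNX gene that these cells expressed. RUNX2 was at most 0.00206 FPKM and RUNX3 at most 0.0708 FPKM in any library, whereas CBFB, which encodes the shared partner subunit, had a median of 19.7 FPKM. Of 17 genes of the RUNX1 list 11 were tested, GATA1 being highest and ERG listed at 0. For K700E induction 0 passed the limma test or an unadjusted p under 0.05, and 6 were above and 5 below 0. Between the uninduced lines, where the summed level of RUNX1 was lower in both K700E libraries, 2 were above and 9 below 0, with a median log2 difference of -0.27, against 0.02 over all genes; 0 passed the limma test and 1 had an unadjusted p under 0.05, against 4.64% of all tested genes.

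**Figure D4:**
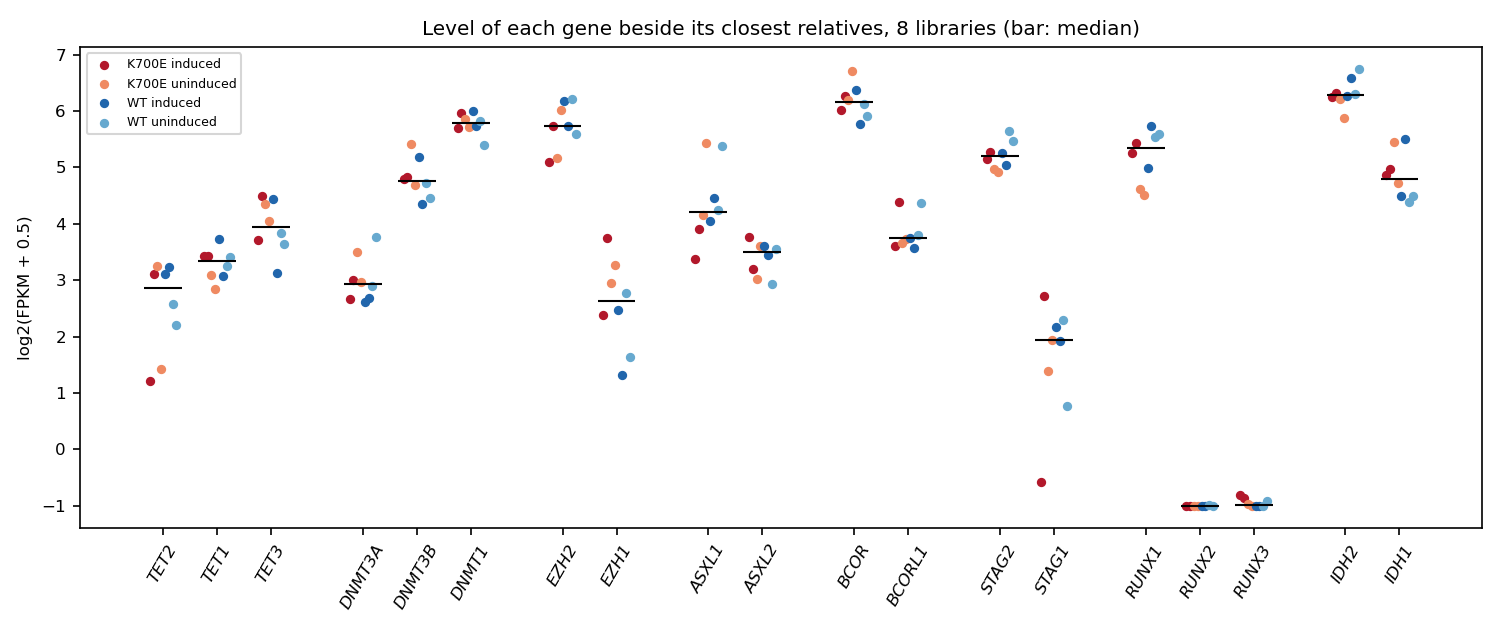
Level of each gene as log2(FPKM + 0.5) (vertical axis) in the 8 libraries beside its closest relatives, coloured by group, with the median as a bar. EZH2, BCOR, STAG2 and RUNX1 lie above their relatives in 8 of 8 libraries, and DNMT3A lies below DNMT3B and DNMT1 in 8 of 8.

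STAG2 (chrX:123094475-123236505, plus strand) was at 34.8 and 38.0 FPKM in induced K700E cells and 30.8 and 29.8 FPKM in uninduced K700E cells, and at 37.7 and 32.3 FPKM in induced WT cells and 49.6 and 43.5 FPKM in uninduced WT cells. It was higher with doxycycline in both K700E libraries and lower with doxycycline in both WT libraries. The log2 fold changes were 0.26 ± 0.33 (SE) for K700E induction and -0.41 ± 0.33 for WT induction, and the interaction was 0.67 ± 0.46 (unadjusted p = 0.183, limma adjusted p = 0.999). With the reference transcripts alone the interaction turned to -1.14. STAG1, the alternative cohesin subunit that takes the place of STAG2, had a median of 3.31 FPKM and was lower in 8 of 8 libraries (mean log2 difference of STAG2 over STAG1 3.63, exact permutation test, adjusted p = 0.0107). One STAG2 exon, of 111 nt (chrX:123224704-123224814, hg19, plus strand), is used in part of the reference transcripts and keeps the frame.
STAG2 111-nt exon: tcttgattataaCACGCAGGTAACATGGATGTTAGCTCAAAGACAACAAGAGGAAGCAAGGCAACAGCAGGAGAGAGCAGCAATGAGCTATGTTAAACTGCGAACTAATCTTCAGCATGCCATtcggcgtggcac
The STAG2 exon was included at 0% and 48.5% in induced K700E cells and 34.8% and 0% in uninduced K700E cells, and at 38.2% and 0% in induced WT cells and 0% and 100% in uninduced WT cells. Every group held 1 library at 0%, and the smallest limma adjusted p over the 5 comparisons was 0.882. An exon of 65 nt near the 5′ end (chrX:123155217-123155281) was included at 0% and 48.5% in induced K700E cells and 100% and 34.9% in uninduced K700E cells. It was included at 42.4% and 32.1% in induced WT cells and 71.1% and 78.1% in uninduced WT cells. The K700E groups overlapped and the WT groups parted. For this exon the smallest limma adjusted p over the 5 comparisons was 0.862. How often exon shares of all genes part between groups of 2 was not counted.

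RAD21 (chr8:117858173-117887105, minus strand), the cleavable subunit that closes the cohesin ring, varied least of the 10 genes. It was at 59.0 and 70.0 FPKM in induced K700E cells and 66.5 and 60.5 FPKM in uninduced K700E cells, and at 64.2 and 63.8 FPKM in induced WT cells and 93.0 and 58.6 FPKM in uninduced WT cells. The highest library was 1.59 times the lowest, and 7 libraries lay between 58.6 and 70.0 FPKM. The log2 fold change was 0.02 ± 0.32 (SE) for K700E induction and -0.21 ± 0.32 for WT induction. A single reference transcript held 92.2% of RAD21 on average, and 1 induced K700E library placed 60.1% of it in a pair of assembled forms that differ from it at the first intron.

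Of 19 other cohesin genes 16 were tested, PTTG1 having the highest mean level and SMC1B being listed at 0. For K700E induction 0 passed the limma test, 12 were above and 4 below 0, with a median log2 fold change of 0.27, against -0.01 over all genes, and 1 had an unadjusted p under 0.05, against 4.69% of all tested genes. Between the uninduced lines 0 passed, 3 were above and 13 below 0, with a median of -0.31, and 0 had an unadjusted p under 0.05. These 2 comparisons share the uninduced K700E libraries.

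**Figure D5:**
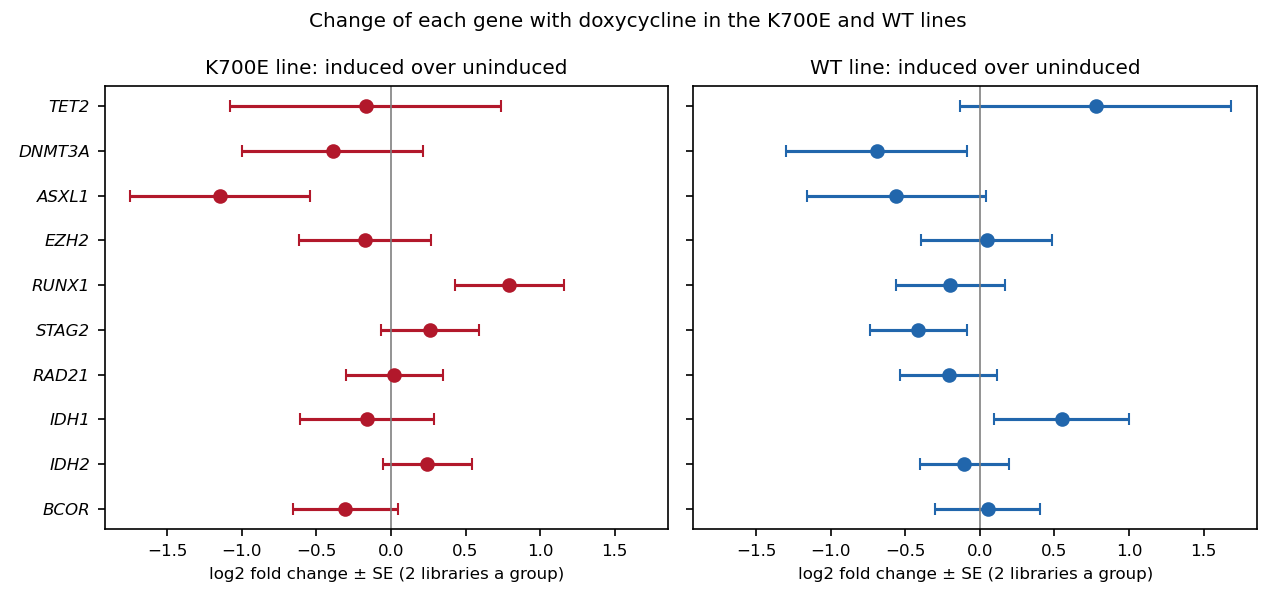
Log2 fold change of each gene (horizontal axes) with its SE as a bar, induced over uninduced cells, in the K700E line on the left and in the WT line on the right. RUNX1 at 0.79 and ASXL1 at -1.15 lie farthest from 0 in the K700E line, and TET2 at 0.78 and DNMT3A at -0.69 in the WT line.

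Splicing of the members was followed through 41 transcripts and 51 introns or groups of introns that held between 5% and 95% of their gene. In the 5 comparisons 0 transcripts and 0 introns of the members passed the limma test, with smallest adjusted p of 0.814 and 0.861. This test could call only very large shifts of a share. On data simulated for K700E induction it called 0% of transcripts and 0% of introns at a shift of 4 log2 units. It called 8.96% of each at 8 log2 units, and 87.9% and 86.4% at 16. At an unadjusted p under 0.05, 11 of 205 transcript tests and 11 of 255 intron tests passed. The same tests called 0% of 24846 transcripts and 0% of 29997 introns over all genes; over the same 5 comparisons, 3.91% of the transcript tests and 4.93% of the intron tests of all genes had an unadjusted p under 0.05.

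None of the new junctions of the members used a new acceptor. The reference transcripts of the 10 genes hold 167 junctions, of which 166 were carried by a transcript above 0 FPKM in at least 1 library. The 39 assembled spliced transcripts of the members, 33 of them found in 1 library only, added 12 junctions absent from the reference. All 12 were the first intron of every transcript that carried them, 9 used a new donor, 3 joined known sites in a new pair, and 0 used an acceptor absent from the reference. The 11344 tested genes together held 4659 new junctions. Of these, 40.9% had a new acceptor, 46.1% a new donor and 38.7% were such first introns. Of the 12 new junctions of the members, 11 were seen in a single library, against 84.4% of the new junctions of all tested genes. Induced K700E libraries carried 4 of the 12, and their share of the new junctions of all genes was not counted. An assembled junction in RUNX1 of 1 induced WT library, for example, joined a new donor to a known acceptor across 194 nt (chr21:36259394-36259587).

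The other splicing factor genes mutated in myelodysplasia, and further genes mutated in these syndromes, gave the same count of calls. All 11 of the splicing factor list, which holds SF3B1, were tested; for K700E induction 0 passed the limma test or an unadjusted p under 0.05, 4 were above and 7 below 0, and the median log2 fold change was -0.07. Of 26 further mutated genes 21 were tested, NPM1 having the highest mean level and FLT3 being listed at 0. For K700E induction 0 passed either way, 9 were above and 12 below 0, and the median was -0.06.

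By the likeness of their pattern over the 8 libraries, measured as the mean absolute difference of centred log2 levels, the gene closest to a member was SRPRA for IDH2 (0.06), TNPO1 for STAG2 (0.08), PDLIM1 for RAD21 (0.10), ADIPOR2 for IDH1 (0.10), SELENOI for RUNX1 (0.11), ARL6IP4 for DNMT3A (0.13), FGFR3 for EZH2 (0.14), STRBP for ASXL1 (0.15) and SLC46A1 for TET2 (0.22). SELENOI was at 11.7 and 11.6 FPKM in induced K700E cells, 7.17 and 8.41 FPKM in uninduced K700E cells, 10.8 and 15.6 FPKM in induced WT cells and 14.0 and 13.7 FPKM in uninduced WT cells. SELENOI was picked for this likeness, so its values describe the pattern and test nothing.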

How the data were processed

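The authors deposited 1 transcript list for each of the 8 libraries, for which the submitters' processing notes name CASAVA, TopHat, Cufflinks and build hg19. The versions of these tools were not given in the sources used here. The deposited values are FPKM for each reference transcript and each transcript assembled in that library. The score column of the deposited files was not used for levels. Read counts are not used here. Nothing states whether strand was used, so reads of antisense genes that overlap a member cannot be told apart from its own.

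A gene's level summed reference transcripts on primary chromosomes with the assembled spliced transcripts of 300 nt or more that shared the most introns with it, ties left out; unspliced assembled transcripts were joined to single-exon reference transcripts where each covered 90% of the other. Of the members, 5 were named by the files and 5 through RefSeq accessions. Libraries were scaled by median-ratio factors (0.989 to 1.04). Genes with a mean of 1 FPKM or more were tested with limma 3.58.1 under R 4.3.3, with a trended variance and 1 mean for each of 4 groups, on log2(scaled FPKM + 0.5), which understates the change of low genes, with Benjamini-Hochberg adjustment over all genes and a threshold of 0.05. Printed FPKM are as deposited. Transcript and intron shares were tested as log2 ratios to the rest of the gene, for mean shares of 5% to 95%. The share of an exon or splice site is the FPKM of transcripts with it over the FPKM of those with or without it. Levels of different genes were compared over the 8 libraries by exact sign-flip permutation tests in scipy 1.17.1. Tables and figures used Python 3.11.15, pandas 2.3.3 and matplotlib 3.10.9.

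The members and gene lists were chosen with earlier results of these data known. Named genes are the 10 members, their transcripts with a mean share of 5% or more, SF3B1, the highest and lowest gene of a list, closest relatives and the gene with the most similar pattern, of which 1 is not reported here; other transcripts named were chosen after their values were seen. On data simulated for K700E induction over 11344 genes, the test called 10.4% of genes at a shift of 2 log2 units, 50.7% at 4 and 83.3% at 6. Alternatives were 2 other pseudocounts, no scaling, no filter on low values, reference transcripts alone, the compared groups alone, a replicate block, each library left out and, added after the data were seen, the median over junctions.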

Additional observations from a re-analysis of the deposited data

Results flagged for a closer look

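STAG2 separated in opposite directions in the 2 lines. Both induced K700E libraries (34.8 and 38.0 FPKM) were above both uninduced K700E libraries (30.8 and 29.8 FPKM), and both induced WT libraries (37.7 and 32.3 FPKM) were below both uninduced WT libraries (49.6 and 43.5 FPKM). Over all tested genes, 16.1% parted without overlap as higher on K700E induction and 14% as lower on WT induction. The share of genes that parted in opposite directions in the lines was not counted. The difference between the lines was tested as an interaction of 0.67 on the log2 scale and did not pass (limma adjusted p = 0.999). By the median over junctions 1 uninduced WT library was at 28.2 FPKM, below both induced WT libraries.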

How the results depend on the processing

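No member passed the threshold under any alternative that gave it a value (smallest adjusted p 0.595, without 1 uninduced WT library), and with 2 libraries a group only very large changes could. Genes called over all genes numbered 3 for K700E induction, 2 for WT induction, 4 between induced lines, 1 between uninduced lines and 3 for the interaction. Without a filter on low values they numbered 30, 14, 17, 27 and 16; with the compared groups alone 1, 0, 2 and 0; with reference transcripts alone 10 for WT induction and 5 between uninduced lines; with the median over junctions 4, 3 and 6 for WT induction, uninduced lines and interaction. Leaving out 1 library gave 1 to 10, 0 to 11, 4 to 12 and 0 to 6 in the first 4 comparisons, and 0 to 4 transcripts for K700E induction, between induced lines and between uninduced lines, against 0. With a replicate block, 2, 2, 3, 1 and 3 genes were called. Deviations of same-numbered libraries from their group means correlated at -0.03 to 0.08 over 6 pairs. Coverage per FPKM was lower in replicate 2 than in replicate 1 of every group. It was 3.94 against 4.45 in induced and 3.63 against 3.85 in uninduced K700E cells, and 3.29 against 4.77 in induced and 3.71 against 4.55 in uninduced WT cells. Low correlations over all genes cannot show that same-numbered libraries were handled apart, so pairing by number was not settled.

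Of 33 member fold changes followed, 30 had a value with reference transcripts alone (TET2 then fell below the filter) and 17 of these reversed, which leaves out forms that exist only as assembled. For K700E induction these were ASXL1 2.06, BCOR 0.33, DNMT3A 1.30, IDH1 2.52, RAD21 -0.63 and STAG2 -0.42; for WT induction BCOR -3.18, EZH2 -0.47 and STAG2 0.72; between induced lines DNMT3A -0.11, EZH2 0.21, IDH1 0.53, IDH2 0.56, RAD21 -0.68, RUNX1 1.47 and STAG2 -0.77; and the STAG2 interaction -1.14. With the median over junctions 7 reversed: RUNX1 -0.018 for K700E induction, 0.36 for WT induction and -0.38 for the interaction, BCOR -0.55 for WT induction, and DNMT3A -0.10, IDH1 0.44 and RAD21 -0.010 between induced lines. The RUNX1 median follows its forms as well as its level. Without single libraries 14 reversed, with ranges for K700E induction of -0.63 to 0.29 for EZH2, -0.48 to 0.16 for IDH1, -0.095 to 0.14 for RAD21 and -1.12 to 0.78 for TET2; for WT induction of -0.26 to 0.38 for BCOR, -0.28 to 0.37 for EZH2, -0.31 to 0.10 for IDH2, -0.56 to 0.14 for RAD21 and -0.55 to 0.17 for RUNX1; and between induced lines of -0.26 to 0.38 for BCOR, -0.57 to 0.41 for IDH1, -0.12 to 0.12 for RAD21, -0.39 to 0.33 for RUNX1 and -0.075 to 0.17 for STAG2. The other alternatives reversed 0 of these values.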
